A study of Arabidopsis thaliana with 6 samples.

Results

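The plastid-encoded genes of Arabidopsis thaliana are the 134 rows of the deposited count table whose identifiers begin with ATCG, among 44200 rows in all. They run from ATCG00010 to ATCG09900 and make up 0.303% of the rows. The study compared the nsra/b double mutant, which carries T-DNA insertions in NSRa and NSRb, with its Col-0 background. NSRs are nuclear speckle RNA-binding proteins that act on alternative splicing. Both genotypes were whole plantlets grown on solid half-strength MS medium in long days of 16 h light and 8 h dark. The labels give 14 days at the move to mock medium, 24 h on it, and harvest at 15 days. The study's methods give an earlier move and a longer read than the labels, which give 100 nt. Stranded libraries were made from polyadenylated RNA, with 3 libraries labelled nsra/b and 3 labelled Col-0.

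AT1G76940 and AT1G21320, taken as NSRa and NSRb from outside the sources used here, were both higher in the libraries labelled nsra/b. AT1G76940 had 4987, 5898 and 5577 counts in the libraries labelled nsra/b, against 396, 519 and 441 in those labelled Col-0. AT1G21320 had 81, 78 and 88 counts in the libraries labelled nsra/b, against 17, 25 and 25 in those labelled Col-0. For mutated genes this direction goes against the labels, and neither the identity of these genes nor an exchange of labels was tested. Genotypes below are those of the labels, and every direction given for nsra/b would turn if the labels were exchanged.

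The plastid genome of a land plant is a small circular remnant of a cyanobacterial genome, present in many copies per cell. It encodes core subunits of the photosystems, the cytochrome b6f complex, the ATP synthase and the NDH complex, the large subunit of Rubisco, and part of the plastid's own transcription and translation machinery. Its genes are read by a bacterial-type polymerase with plastid-encoded core subunits (PEP), directed to promoters by nuclear-encoded sigma factors, and by nuclear-encoded phage-type polymerases. Unlike nuclear mRNAs, mature plastid transcripts mostly lack a stable poly(A) tail, and tails added in the plastid mark RNA for decay.

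All 134 plastid rows were listed at 0 in all 6 libraries, so that none of the 804 values was above 0. Counts over all genes came to 25936176, 30758283 and 29848192 in the libraries labelled nsra/b, and to 27152846, 32578330 and 30249052 in those labelled Col-0. A summed plastid count of 0 allowed a level of up to 0.116, 0.0975 and 0.101 CPM (counts scaled to library totals) in nsra/b, against 0.11, 0.0921 and 0.0992 CPM in Col-0, taking 3 counts of each total as the limit. Over the 176522879 counts of all 6 libraries together, the limit was 0.017 CPM. These limits cover counting error only, and they limit what was counted in the table, not the level of plastid RNA in the plantlets. Whether reads were aligned to the plastid genome, or plastid reads were counted, is not given in the sources used here and was not tested. The 0 values are therefore not a measurement that plastid genes were silent.

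No plastid gene could be compared between genotypes. Of the 134 rows, 0 passed the filter on low counts, 0 were tested by edgeR's quasi-likelihood test, and 0 were called higher or lower in nsra/b at an adjusted p under 0.01. The count at an unadjusted p under 0.05 was also 0, as were the counts of calls by DESeq2 and limma voom. Over the whole table, 1914 of 21606 tested features were called (8.86%), of which 1140 were higher (5.28%) and 774 lower (3.58%) in nsra/b. The plastid rows add nothing to either count. No fold change, rank of levels, spread between replicates or ratio of plastid shares was obtained, since each would set 0 against 0.

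The reference annotation shows what these rows would have reported. Its plastid genome is 154478 bp long and lists 131 genes, of which 87 are protein-coding, 37 encode tRNAs and 7 encode rRNAs. They carry 108 distinct names, and 15 names are listed more than once, among them ndhB, rpl2, rps7 and ycf2. The longest stretch present in both orientations spans 26264 bp, so that a read from a gene there matches both copies equally. The protein-coding genes include psbA, for the D1 protein of the photosystem II reaction centre (bases 383 to 1444, minus strand), psbD, for the D2 protein (32711 to 33772, plus strand), psaA, for a core protein of photosystem I (39605 to 41857, minus strand), and rbcL, for the large subunit of Rubisco (54958 to 56397, plus strand). The annotation gives these names without ATCG identifiers. A class list from outside the sources used here pairs names with identifiers, and that pairing was not checked. Every row was at 0, whichever gene it stands for.

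Of the 134 identifiers, 7 are described in notes of the nuclear annotation. ATCG00430 is described there as protein G of the photosystem II reaction centre, but the class list from outside the sources used here gives it as ndhK of the NDH complex. ATCG00660, ATCG00750 and ATCG01310 are given as ribosomal proteins L20, S11 and L2, which belong to the plastid's own ribosome. ATCG00670 is CLP P, the proteolytic subunit of the plastid Clp protease, and ATCG00420 is the source of the nuclear pseudogene AT4G13285. ATCG00530 is described there as related to a CemA-like protein, and the same class list gives it as cemA itself. All 7 were at 0 in the 3 nsra/b libraries and in the 3 Col-0 libraries.

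The mitochondrial genome gave the same picture. All 161 mitochondria-encoded rows were at 0 in every library, which leaves 295 organelle rows with no counted read. Among the other 43905 rows of the table, 12385 (28.2%) were at 0 in all 6 libraries. That share was 12.7% of 27442 nuclear protein-coding genes, 34.4% of 6393 loci predicted de novo, 59% of 3474 lncRNAs, 79.1% of 4839 pseudogenes and 86.9% of 625 nuclear tRNA genes. The 2 organelle classes were the only ones of the 8 without any count. The other 82 nuclear tRNA genes held 1185 counts in all. RBCS1A, the nuclear gene for a small subunit of Rubisco, had 214043, 246792 and 230322 counts in nsra/b, against 224246, 262149 and 238336 in Col-0. Its levels were 7980 ± 280 CPM in nsra/b and 8089 ± 238 CPM in Col-0 (SD, n = 3 each) and overlapped between genotypes. The row or rows of its plastid-encoded partner, rbcL, were at 0 in the same libraries.

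**Figure D1:**
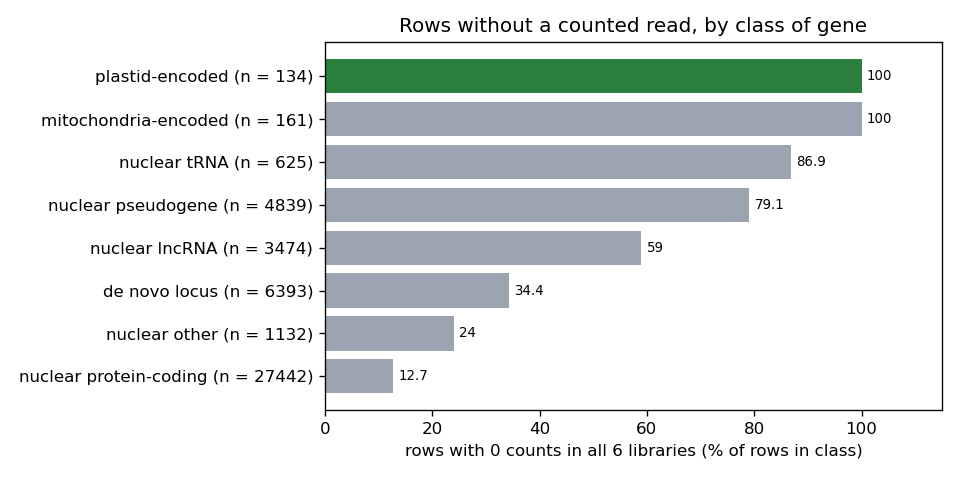
Share of rows with 0 counts in all 6 libraries (x axis, percent of the rows in a class) for 8 classes of gene, with the number of rows in each class. Plastid-encoded and mitochondria-encoded rows stand at 100%, nuclear tRNA genes at 86.9% and nuclear protein-coding genes at 12.7%.

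Pieces of plastid DNA have been copied into plant nuclear chromosomes over evolution, and reads from a plastid gene and from an exact nuclear copy cannot be told apart. Nuclear rows were therefore searched for exact stretches shared with the plastid genome. This search was added after the 0 values were seen, and stretches of 30, 50 and 100 bases were all examined before 100, the read length of the labels, was taken. At 100 bases, 10 nuclear rows overlapped such a stretch, 2103 nuclear bases in all, and their counts summed to 52 over the 6 libraries. Of these, 6 rows were at 0 throughout, 9 never exceeded 3 counts in a library, and 1 did. Reads were sequenced in pairs, and the labels give an insert of 260 bp, while the longest exact run of these rows is 200 bases. No insert of that length lies wholly within a run, so that low counts on these rows do not show how many plastid reads were sequenced.

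Both stretches shown here come from plastid genes that share an exact run of at least 100 bases with a nuclear row in the sense orientation. Each begins with the end of the exact run, which was chosen to match. The first capital differs because the run ends there, so that only the letters after it were not fixed by the choice. The ndhF pair shows no difference beyond that base. The ycf1 pair, chosen in the same way, differed at 6 of 30 bases and is not printed. The first pair is from rbcL, with the nuclear gene AT2G07732 at chr2:3468431-3468460 (minus strand) and the plastid genome at bases 55776 to 55805 (plus strand). The second pair is from ndhF, a subunit gene of the NDH complex, with the nuclear pseudogene AT2G07600 at chr2:3189057-3189086 (minus strand) and the plastid genome at bases 111440 to 111469 (minus strand). Sequences are from RefSeq's TAIR10.1 assembly, written 5′ to 3′ in the sense of the gene, and capitals mark the bases that differ.
AT2G07732: attcaccgcaaatactagtttgGctcattC
rbcL: attcaccgcaaatactagtttgTctcattA
AT2G07600: tgtcccgattacaaaaacggccAttttaat
ndhF: tgtcccgattacaaaaacggccTttttaat

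AT2G07732, annotated as a protein with a Rubisco large chain domain, shares an exact run of 110 bases with rbcL. It had 1, 0 and 1 counts in nsra/b, against 1, 0 and 2 in Col-0. AT2G07600 shares 112 bases with ndhF and was at 0 in all 6 libraries. AT2G07739, annotated as a Ycf1 protein, holds the longest run, 200 bases of ycf1, and had 1, 1 and 1 counts in nsra/b, against 0, 0 and 1 in Col-0. AT5G31909 shares 183 bases with rpoC2, which encodes a core subunit of PEP, and was at 0 throughout. The values of AT2G07732 and AT2G07739 overlapped between genotypes and stayed at or under 3 counts, so that no fold is given.

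Of the remaining rows, AT2G07080 shares 131 bases with a stretch of the plastid genome that holds no annotated gene, and had 1, 0 and 0 counts in nsra/b, against 2, 3 and 1 in Col-0. AT3G33000, with a run at atpI, a subunit gene of the ATP synthase, was at 0 in every library, as were AT3G20365, AT4G08345 and AT3G20362. The row above 3 counts was NUB (AT1G13400), with 8, 7 and 4 counts in nsra/b, against 5, 6 and 6 in Col-0. Its 109 shared bases lie in the orientation opposite to ycf2. Its values overlapped between genotypes. With a minimum of 50 bases, 32 nuclear rows overlapped shared sequence and 6 of them exceeded 3 counts. With 30 bases these numbers were 63 and 16, and the counts of such rows, 61024, include reads from the unshared remainder of the genes.

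**Figure D2:**
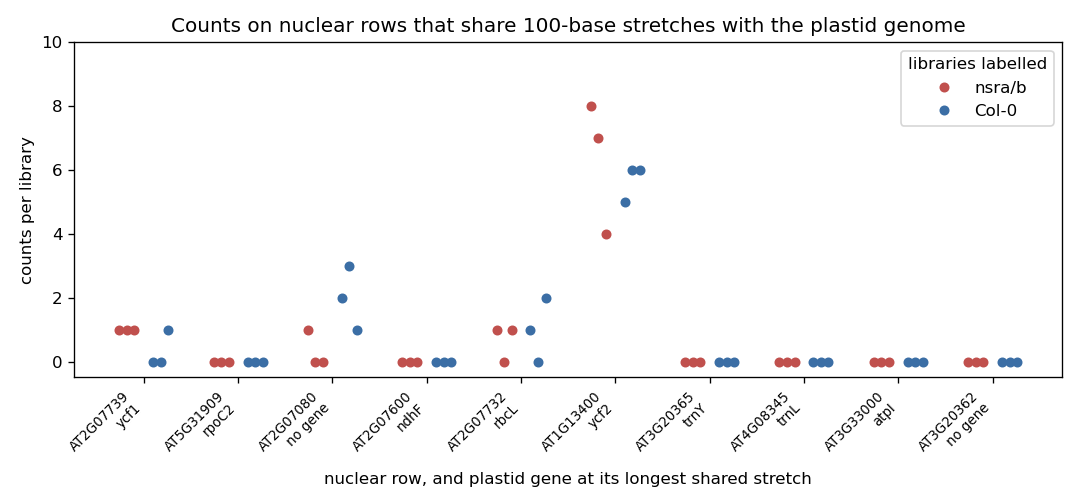
Counts per library (y axis) of the 10 nuclear rows that overlap an exact stretch of at least 100 bases shared with the plastid genome (x axis, with the plastid gene at the longest stretch), 3 libraries labelled nsra/b at the left of each row and 3 labelled Col-0 at the right. Only AT1G13400 exceeds 3 counts, with 4 to 8 in nsra/b and 5 to 6 in Col-0, and 6 rows are at 0 throughout.

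The nuclear genes for factors that transcribe and process plastid RNA were measured. Their mRNA levels do not measure plastid RNA, for which this comparison holds no value. Of 36 listed genes, 35 were tested, and AT2G33430 (MORF2) had no row among the deposited counts. In the libraries labelled nsra/b, 3 were higher and 2 lower, that is 14.3% called, against the 8.86% of all tested features given above. The median log2 fold change (nsra/b over Col-0) was -0.03 with a range of -0.16 to 0.22, against a median of 0.00 over all tested features, and 0 of the 35 genes changed by 1 or more on the log2 scale. By role, 2 of 6 sigma factors were higher and 1 lower, 0 of 2 phage-type polymerases were called, 1 of 12 PEP-associated proteins was lower and 1 of 15 RNA processing and stability factors was higher.

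SIGE (SIG5, AT5G24120), a sigma factor known for light- and stress-responsive transcription of psbD, had the largest log2 fold change of the 35. It had 123, 120.3 and 125.5 CPM in nsra/b, against 106.6, 104.2 and 106.7 CPM in Col-0. All 3 nsra/b libraries thus exceeded all 3 Col-0 libraries, with means of 122.9 ± 2.58 CPM in nsra/b and 105.8 ± 1.4 CPM in Col-0 (SD, n = 3 each). On the log2 scale SIGE was higher by 0.22 in the libraries labelled nsra/b, with a standard error of 0.03 and an adjusted p of 5.35e-07 (edgeR, quasi-likelihood). It was called without any 1 of the 6 libraries, at 0.20 to 0.23. The row of psbD, its known target, was at 0, so that no change in the target could be measured.

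The other 4 edgeR calls were smaller, each was lost in at least 1 of the fits that leave out 1 library, and DESeq2 made none of them. SIGA (SIG1, AT1G64860), another sigma factor, had 136.9 ± 4.13 CPM in nsra/b and 126.6 ± 3.29 CPM in Col-0 (log2 fold change 0.11), and kept its call only without Col-0 replicate 3 (0.13) or nsra/b replicate 2 (0.13) among the fits that leave out 1 library. SIG2 (AT1G08540), which serves plastid tRNA genes, had 94.29 ± 3.11 CPM in nsra/b and 102.5 ± 2.23 CPM in Col-0 (-0.12), and kept its call only without nsra/b replicate 2 (-0.14). PDE312 (pTAC10, AT3G48500), a PEP-associated protein, had 52.42 ± 2.9 CPM in nsra/b and 58.63 ± 0.603 CPM in Col-0 (-0.16), and lost its call without Col-0 replicate 2 (-0.15) or nsra/b replicate 2 (-0.12). HCF152 (AT3G09650), a pentatricopeptide repeat protein that processes plastid psbH-petB transcripts, had 28.66 ± 0.298 CPM in nsra/b and 25.57 ± 0.315 CPM in Col-0 (0.17), and was not called when any 1 library was left out (0.16 to 0.18).

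Of the 6 markers of green tissue 2 were called, and of the 6 markers of root 2, against 8.86% of all tested features. The summed level of 6 green tissue markers was 33360 to 33830 CPM in nsra/b and 34860 to 36540 CPM in Col-0, with CAB1 (log2 fold change -0.21) and GLK2 (-0.11) called lower, 0 of 6 higher and 4 not called. The summed level of 6 root markers was 4467 to 4842 CPM in nsra/b and 4116 to 4294 CPM in Col-0, with PYK10 higher (0.16), BGLU21 lower (-0.27) and 4 not called. Neither sum overlapped between genotypes, but 1 gene carried each. Without CAB1 the green sum was 20050 to 20650 CPM in nsra/b and 20020 to 20900 CPM in Col-0, which overlapped. Without PYK10 the root sum was 109.3 to 112.7 CPM in nsra/b and 119.2 to 123.2 CPM in Col-0, the opposite direction. That sum includes BGLU21, at 53.52, 49.12 and 50.43 CPM in nsra/b against 62.3, 62.04 and 60.05 CPM in Col-0. The other 4 root markers were not called. The part of these markers in the changes of the nuclear genes above was not tested. In whole plantlets, fewer green cells and less RNA per cell cannot be told apart.

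**Figure D3:**
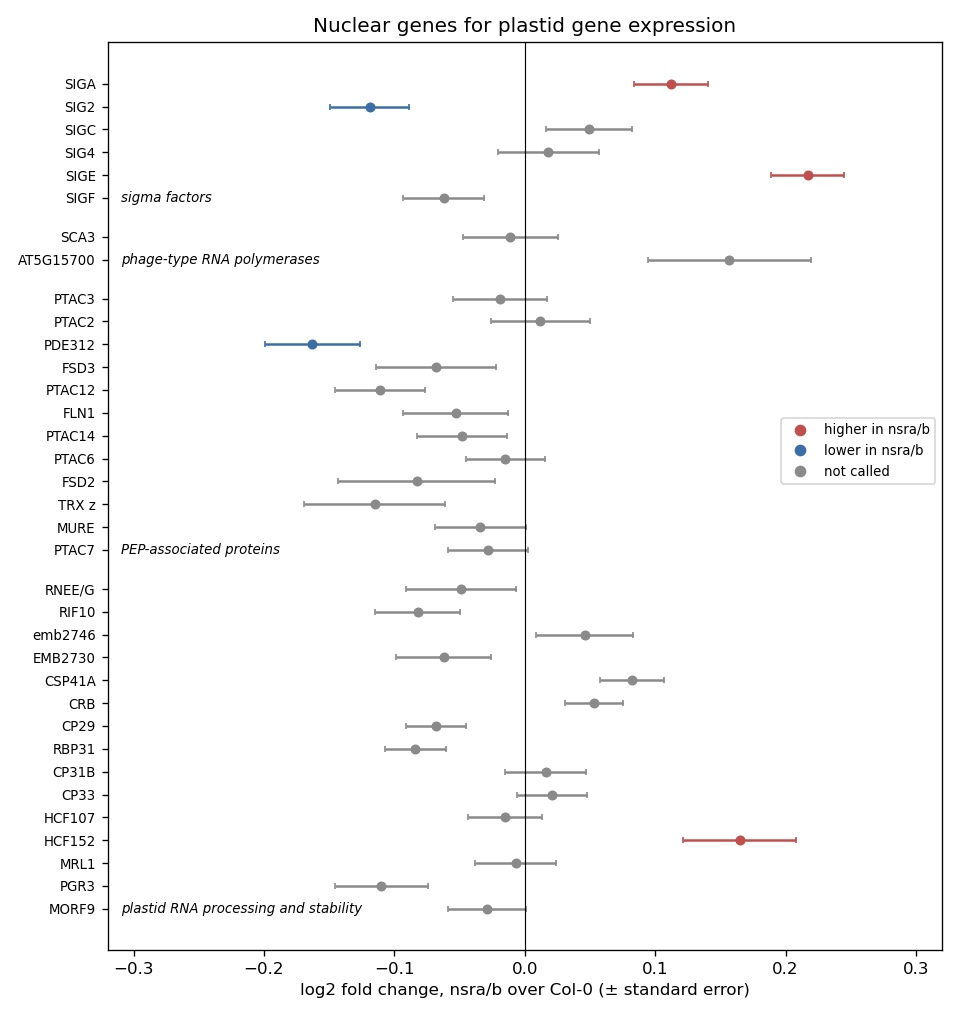
Log2 fold change, nsra/b over Col-0, with its standard error (x axis) for 35 nuclear genes of plastid gene expression, in 4 groups by role, from 3 libraries per genotype. SIGE, SIGA and HCF152 are higher in nsra/b, SIG2 and PDE312 are lower, and all 35 values lie between -0.16 and 0.22.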

How the data were processed

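The authors deposited raw counts per gene for 6 libraries of polyadenylated RNA. Per the study's methods, stranded read pairs were filtered with fastqc, aligned with tophat with 1 alignment kept per read, and counted by strand with summarizeOverlaps (Union mode) on annotated genes merged with loci predicted de novo. The labels name TAIR10. Which chromosomes were aligned to or counted is not given in the sources used here. Genotype and replicate number were taken from the labels. The p-values of edgeR refer to the spread between these 3 libraries per genotype, with each feature's estimate drawn towards that of all tested features.

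Counts of the whole table entered the quasi-likelihood test of edgeR 4.0.16 (R 4.3.3), with TMM factors of 0.992 to 1.01, filterByExpr (minimum count 10, minimum total count 15) and no factor but genotype. A feature was called at a Benjamini-Hochberg adjusted p under 0.01. This left 21606 features. Standard errors were the size of the log2 fold change divided by the root of its F statistic. CPM values used the TMM-scaled totals. Alternatives were DESeq2 1.42.0, limma voom 3.58.1, DESeq2 size factors, library size only, nuclear genes only for scaling, other filters and thresholds, a replicate block, and fits that omit 1 library. Names, classes and sequences were read from RefSeq's TAIR10.1 annotation, in which 0 plastid identifiers matched a locus tag. Nuclear rows with plastid sequence were found by exact match of their exons, widened to the shared run. Members and gene lists were chosen with earlier results of these data known. The rule for named genes was called plastid genes, the 10 plastid genes with the highest CPM and the highest of each class (none had a count), and the called genes of each nuclear list, at most 4 by smallest p. Descriptions of annotated identifiers, nuclear copies and RBCS1A were chosen after their values were seen.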

Additional observations from a re-analysis of the deposited data

How the results depend on the processing

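The numbers of plastid-encoded and mitochondria-encoded genes called were 0 under every alternative, since no row had a count, and say nothing about stability. The ratio of plastid shares, its other denominators and member subsets, the summed copies of the inverted repeat and the fold changes of single plastid genes gave no value. Of the nuclear genes for plastid gene expression, 3 were called higher and 2 lower. DESeq2 called 1 higher (SIGE) and 1 lower (RBP31, named after its value was seen, which edgeR did not call), Bonferroni adjustment 1 higher and 0 lower, a minimum fold of 1 on the log2 scale left 0 higher and 0 lower, and an adjusted p under 0.05 gave 4 higher and 6 lower. With each library left out in turn, 1 to 2 were higher and 0 to 1 lower. With the replicate block, 4 were higher and 3 lower, and all 5 named genes remained called. Correlations of the deviations of same-numbered libraries were -0.0119, 0.0254 and 0.0558, so that the numbers were not taken as pairs. Over 85 combinations of the 5 named genes with an alternative, 55 kept the call, 30 lost it and 0 changed sign, and the cause was not tested. Not all 85 were separate fits. The threshold of 0.05, the Bonferroni adjustment and the minimum fold reused the main fit, so that no sign could change there. An adjusted p under 0.05 had to keep every call. Scaling on nuclear genes alone repeated the main fit, since every organelle row was at 0. Among all these settings, SIGE lost its call only under the minimum fold. With shared stretches of at least 50 and 30 bases in place of 100, 6 and 16 nuclear rows exceeded 3 counts in a library, against 1. Taking 3 counts of a library total as the limit, summed plastid counts were limited to at most 0.116 CPM of what was counted. That figure sets no limit on plastid RNA, since whether plastid reads were counted is not given.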
